A study of Mus musculus with 2 samples.

Results

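The miR-106b~25 cluster is a group of 3 microRNA (miRNA) genes, Mir106b, Mir93 and Mir25, that lie one after another inside an intron of Mcm7. The 3 genes were picked by a rule on their position and names in the GENCODE M21 annotation, which uses no measured value, out of 2202 miRNA genes in the deposited tables. Small RNAs under 30 bases were sequenced from the hippocampus of B6CASTF1/J females, 2 months old, and reads were counted over annotated miRNA genes. These animals are hybrids of C57BL/6J and a castaneus-derived strain. The labels name 1 group, with no treatment, mutation or transgene, and give the tissue as a hippocampal layer that is not specified. The group holds 2 libraries, biological replicates 2 and 1, from separate tissue samples that carry the same donor record. Whether these were separate animals is not stated, so differences between the libraries may be partly technical. The tests between them set a difference against counting error alone and hold no estimate of the spread between animals.

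Mcm7 encodes a subunit of the helicase that unwinds DNA for replication, and it is transcribed strongly in dividing cells. A miRNA gene is transcribed as part of a longer RNA, from which a hairpin is cut out, and 1 arm of the hairpin is loaded into a protein complex that represses messenger RNAs. The seed of the miRNA, bases 2 to 8, decides most of its targets. The arms miR-106b-5p and miR-93-5p are known repressors of the cell cycle inhibitor Cdkn1a, and miR-25-3p of the cell death gene Bcl2l11. In adult mouse brain the cluster is known from neural stem and progenitor cells, where it promotes proliferation and the production of neurons, and hippocampus keeps such cells in the dentate gyrus.

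All 3 genes lie on the minus strand of chromosome 5 in mm10. Mir106b (ENSMUSG00000065514.1) spans positions 138165737 to 138165818, Mir93 (ENSMUSG00000065527.1) 138165523 to 138165610, and Mir25 (ENSMUSG00000065394.1) 138165321 to 138165404. In the principal protein-coding transcript of Mcm7 all 3 fall within intron 13, which is 748 bases long. Transcription reaches Mir106b first, 91 bases into the intron, then Mir93 after a gap of 126 bases and Mir25 after a further 118. Mir93 and Mir25, but not Mir106b, also lie within exon 1 of a short Mcm7 transcript annotated as a retained intron. No gene other than Mcm7 overlaps the hairpins on either strand.

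**Figure D1:**
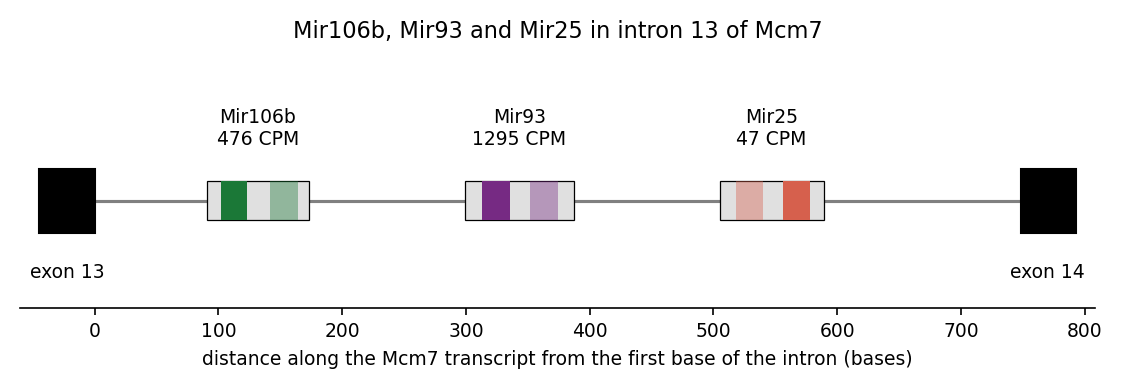
Map of the Mcm7 intron that holds the cluster, with the distance in bases from its first base on the x axis; black boxes are the flanking exons (drawn shortened), pale boxes the hairpins, strong colour the arm with the seed discussed in the text and faint colour the other arm. The mean level of each gene over both libraries is written above it, and Mir93, in the middle, has the highest level.

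The hairpins are shown because each gene's count is a count of reads over its whole hairpin. They are given 5′ to 3′ as RefSeq (GRCm38.p6) lists them, with both mature arms in capitals.
Mir106b: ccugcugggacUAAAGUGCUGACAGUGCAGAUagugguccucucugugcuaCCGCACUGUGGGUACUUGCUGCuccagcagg
Mir93: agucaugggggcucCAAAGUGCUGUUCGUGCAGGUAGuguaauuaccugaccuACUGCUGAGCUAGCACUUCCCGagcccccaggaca
Mir25: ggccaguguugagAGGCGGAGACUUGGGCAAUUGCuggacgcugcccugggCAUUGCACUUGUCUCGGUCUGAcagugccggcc

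The arm known to be loaded most is the 5p arm for Mir106b and Mir93 and the 3p arm for Mir25, and it is shown next with its seed in capitals. The deposited counts do not separate the arms.
miR-106b-5p: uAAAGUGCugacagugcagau
miR-93-5p: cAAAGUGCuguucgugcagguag
miR-25-3p: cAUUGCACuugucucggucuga
Mir106b and Mir93 have the same seed, and their arms share an unbroken stretch of 9 bases that begins with it. Mir25 has another seed, and its arm shares no stretch over 4 bases with either. The hairpins were 82, 88 and 84 bases long for Mir106b, Mir93 and Mir25. Their predicted minimum free energies were -41.0, -46.3 and -35.9 kcal/mol, so Mir25 had the least stable predicted fold. Its GC content was 63.1%, against 57.3% for Mir106b and 55.7% for Mir93.

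The tables assign no gene to a multimapping read, so a miRNA with identical copies is undercounted. None of the 6 mature arms of the cluster occurs in another annotated miRNA hairpin. The longest stretch that a member's hairpin shares with a miRNA gene elsewhere was 14 bases for Mir106b, 13 for Mir93 and 14 for Mir25. All are shorter than the 20 bases taken here as a copy. Matches elsewhere in the genome were not analysed here.

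Replicate 2 held 5979247 sense counts on miRNA genes and replicate 1 held 4517648. Levels are counts per 1000000 of these (CPM). For a gene with no count, levels of up to 0.502 CPM in replicate 2 and 0.664 CPM in replicate 1 are possible. Such limits and all intervals reflect counting error alone, because copies of 1 molecule made by PCR are counted separately. Neuron-enriched miRNAs, checked as markers of the tissue, summed to 53819 CPM (replicate 2) and 49220 CPM (replicate 1) over 12 annotated genes. They were led by Mir132 and Mir128-1, but not all were high. Of the listed miR-124 genes, Mir124a-2 had 0 counts in replicate 2 and 4 in replicate 1, and Mir124a-3 had 3 and 2. Both have a copy elsewhere, so their reads can be undercounted. Of 9 annotated miRNA genes of pluripotent cells 5 had no count, and the list summed to 1.17 CPM (replicate 2) and 1.99 CPM (replicate 1). Of all 2202 miRNA genes 1428 had no count in either library, so nothing was read from those 5. In whole tissue, fewer cells of a type and less RNA per cell cannot be told apart.

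All 3 members were counted in both libraries, at levels that spanned a wide range. Mir93, the middle gene, had 7808 counts in replicate 2 and 5804 in replicate 1, or 1306 CPM (95% Wilson interval 1277 to 1335) and 1285 CPM (1252 to 1318). Mir106b, which shares its seed, had 2943 counts in replicate 2 and 2080 in replicate 1, or 492.2 CPM (474.7 to 510.3) and 460.4 CPM (441.1 to 480.6). Mir25, the last gene along the transcript, had 323 counts in replicate 2 and 181 in replicate 1, or 54.0 CPM (48.4 to 60.2) and 40.1 CPM (34.6 to 46.3). The order was the same in both libraries, with Mir93 highest and Mir25 lowest, and no 2 members had levels that overlapped.

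The means were 1295 ± 14.9 CPM for Mir93, 476.3 ± 22.5 CPM for Mir106b and 47.0 ± 9.87 CPM for Mir25 (SD, n = 2). By mean level Mir93 had rank 83, Mir106b rank 130 and Mir25 rank 237 among the 2202 genes, of which 1428 had no count in either library. Together the members held 1852 CPM (replicate 2) and 1785 CPM (replicate 1), a share of 0.182% ± 0.00473 of the counts on miRNA genes. Antisense reads were nearly absent, with 2 over Mir25 in replicate 2 and none over any member otherwise.

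**Figure D2:**
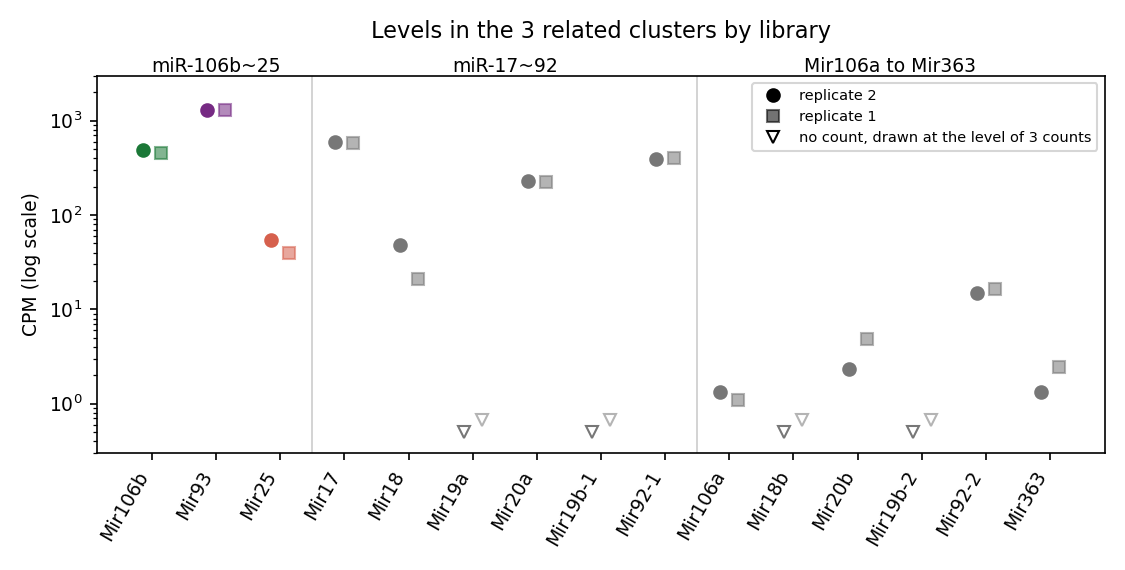
Levels in CPM (log scale) of the genes of the miR-106b~25, miR-17~92 and Mir106a to Mir363 clusters, each in the order of transcription, with circles for replicate 2, squares for replicate 1 and open triangles for a gene with no count, drawn at the level that 3 counts would give. Mir93 is the highest of the 15 genes in both libraries, and Mir25 lies below Mir106b and Mir93 in both.

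The members were then compared with each other within each library, where the size of the library plays no part. The counts of Mir93 were 2.65 times those of Mir106b in replicate 2 (95% exact interval 2.54 to 2.77) and 2.79 times in replicate 1 (2.65 to 2.94). Per base of hairpin the mean ratio was 2.54. In counts, Mir93 therefore exceeded the gene with the same seed by much more than the spread between the libraries. The mean log2 ratio of counts was 1.44 ± 0.0515 (SD, n = 2). Whether different miRNA sequences enter a library equally well was not tested, and neither the SD nor the intervals here and below cover it.

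Mir25 differed far more from both of the others. The counts of Mir93 were 24.2 times those of Mir25 in replicate 2 (21.6 to 27.1) and 32.1 times in replicate 1 (27.7 to 37.4), a mean log2 ratio of 4.80 ± 0.288. The counts of Mir25 were 0.110 times those of Mir106b in replicate 2 (0.0975 to 0.123) and 0.0870 times in replicate 1 (0.0743 to 0.101), a mean log2 ratio of -3.36 ± 0.237. Per base of hairpin these mean ratios were 26.6 and 0.0954. All 3 pairs were compared, and in each the distance between the genes was several times the SD over the libraries.

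As shares of the cluster's counts, Mir93 made up 71.2% ± 1.03, Mir106b 26.2% ± 0.555 and Mir25 2.58% ± 0.476 (SD, n = 2). The split between Mir93 and Mir106b changed little between the libraries. The ratio of Mir93 to Mir106b in replicate 2 was 0.951 times that in replicate 1 (95% exact interval 0.890 to 1.02, which includes no change). The ratio of Mir93 to Mir25 in replicate 2 was 0.754 times that in replicate 1 (0.623 to 0.910), and that of Mir25 to Mir106b was 1.26 times (1.04 to 1.53). The part of Mir25 within the cluster was thus larger in replicate 2, beyond counting error.

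Each gene was also compared between the libraries with Fisher's exact test, two-sided, against all other miRNA counts, with Benjamini-Hochberg adjustment over the 420 genes that had at least 10 counts in both. This compares the reads of these 2 libraries and not any condition. Mir25 was 1.35-fold higher in replicate 2, a log2 ratio of 0.43 (95% exact interval 0.16 to 0.70, adjusted p = 0.00259 by Fisher's exact test). Mir106b was 1.07-fold higher, a log2 ratio of 0.10 (0.01 to 0.18, adjusted p = 0.0365 by the same exact test), but did not pass with the deeper library thinned or with no filter on low counts. Mir93 missed the threshold, with a log2 ratio of 0.02 (-0.03 to 0.07, adjusted p = 0.459 by the exact test), though it passed as higher with TMM or DESeq2 scaling.

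The call for 2 of the 3 members stands against a background of 56.9% of all tested genes called in either direction, and 27.1% called as higher in replicate 2. In either direction the share of called members was thus near that of the whole table. Both called members were higher in replicate 2, and with 3 genes nothing further was read from that count. Over all tested genes the median log2 ratio was -0.07 and the median size of the ratio 0.30. A ratio at least as large as that of Mir93 was seen in 96.9% of the tested genes, at least as large as that of Mir106b in 81.2%, and at least as large as that of Mir25 in 38.6%. Among the 64 tested genes within 2-fold of the level of Mir93, Mir93 itself included, the median size of the log2 ratio was 0.27, and 60 had a ratio at least as large as that of Mir93. Among the 66 within 2-fold of Mir106b the median was 0.19, and 46 had a ratio at least as large as that of Mir106b. Among the 71 within 2-fold of Mir25 the median was 0.30, and 29 had a ratio at least as large. Mir93 and Mir106b thus lay closer between the libraries than most tested genes.

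Summed levels of the marker lists of other cell types differed between the libraries as well. The choroid plexus and ependyma list reached 2024 CPM (replicate 2) and 1502 CPM (replicate 1), and none of its 5 genes was at 0. In replicate 2 the endothelial and mural list reached 22325 CPM, the oligodendrocyte list 6984 CPM, the microglia and leukocyte list 2063 CPM and the erythroid list 142.5 CPM. In replicate 1 these lists reached 19223, 6533, 1762 and 95.4 CPM in the same order, and no gene of theirs was at 0. A sum can hide single genes that go the other way. In the oligodendrocyte list, Mir219a-2 had 2990 CPM in replicate 2 and 2256 CPM in replicate 1. That difference is larger than the difference of the sum, so the other genes of the list together were lower in replicate 2. The part of these cell types in the higher level of Mir25 in replicate 2 was not tested.

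**Figure D3:**
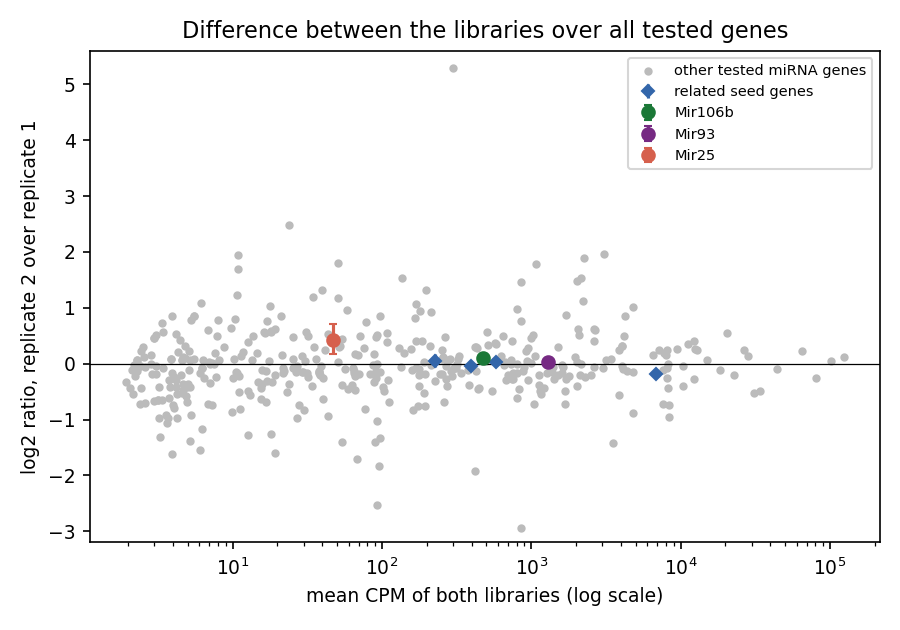
Log2 ratio of replicate 2 over replicate 1 on the y axis against the mean CPM of both libraries (log scale) on the x axis for the 420 tested genes, with 95% exact intervals for the members and for Mir17, Mir20a, Mir92-1 and Mir92b. Mir93 and Mir106b lie near 0, at 0.02 and 0.10, while Mir25 lies at 0.43 with the widest interval of the 3.

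Genes elsewhere carry the same seeds, and their sequences show how the cluster's miRNAs are related to them. Only 1018 of the 2202 counted genes have a RefSeq mature sequence, so the rest could not be searched for a seed. Besides Mir93 and Mir106b, 5 counted genes have the seed AAAGUGC in a RefSeq mature sequence, and besides Mir25, 6 have AUUGCAC. The counted ones at the highest levels are shown, with the seed in capitals.
miR-17-5p: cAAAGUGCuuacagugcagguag
miR-20a-5p: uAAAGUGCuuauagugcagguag
miR-92a-3p: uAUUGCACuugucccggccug
miR-92b-3p: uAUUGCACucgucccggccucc
Beyond the seed, miR-93-5p ends in a stretch of 10 bases that it shares with both miR-17-5p and miR-20a-5p. The longest stretch that miR-106b-5p shares with miR-17-5p, of 9 bases, also lies beyond the seed, whereas its longest with miR-20a-5p, again of 9 bases, is the seed with 1 base on each side. The arm miR-25-3p shares 12 bases, seed included, with miR-92a-3p and 8 with miR-92b-3p.

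The members dominated one seed group and were a small part of the other. Mir93 and Mir106b held 68.5% of the counts of the AAAGUGC group in replicate 2 (95% Wilson interval 67.8 to 69.2) and 68.3% in replicate 1 (67.5 to 69.2). Mir93 alone held 50.0% ± 0.393, Mir17 of the miR-17~92 cluster 22.6% ± 0.107, Mir106b 18.4% ± 0.512 and Mir20a, a neighbour of Mir17, 8.79% ± 0.0545 (SD, n = 2). Mir93 thus held about as much as all other genes of its group together, and the order of these 4 was the same in both libraries. The remaining genes were near or at 0, with Mir20b at 14 counts in replicate 2 and 22 in replicate 1, Mir106a at 8 in replicate 2 and 5 in replicate 1, and Mir6383 at 0 in both.

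The 4 abundant AAAGUGC genes were also close between the libraries. Mir17 had a log2 ratio of 0.03 (adjusted p = 0.526 by Fisher's exact test) and Mir20a of 0.05 (adjusted p = 0.495 by the same exact test), beside 0.02 for Mir93 and 0.10 for Mir106b. Of the 5 tested genes of the group, 1 was called, Mir106b, against 56.9% of all tested genes. The fifth, Mir20b, had a log2 ratio of -0.92 from its 14 counts in replicate 2 and 22 in replicate 1 (adjusted p = 0.0723 by the exact test). A log2 ratio no larger in size than that of Mir106b was seen in 22.1% of the 195 tested genes at 100 CPM or more.

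In the AUUGCAC group Mir25 held 0.780% of the counts in replicate 2 (0.700 to 0.870) and 0.514% in replicate 1 (0.445 to 0.595). The group was made up almost wholly by Mir92b, a gene on chromosome 3 outside these clusters, with 38537 counts in replicate 2 and 33009 in replicate 1, or 93.5% ± 0.508 of the group. Mir92-1 of the miR-17~92 cluster followed at 5.40% ± 0.330. Mir25 came next, above Mir32 at 0.260% ± 0.00583 and Mir92-2 at 0.214% ± 0.00502, and Mir363 held 0.0253% ± 0.00844. Mir367 had no count. Mir92-1 and Mir92-2 share 22 bases and the same mature sequence, so reads of miR-92a-3p can be lost from both, and the shares in this group are uncertain.

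The summed levels of the groups lay in the opposite relation to the cluster's own. All AUUGCAC genes together reached 6923 CPM in replicate 2 and 7789 in replicate 1, against 2624 CPM in replicate 2 and 2553 in replicate 1 for the AAAGUGC genes. Within the Mcm7 intron the AAAGUGC genes exceeded the AUUGCAC gene instead.

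**Figure D4:**
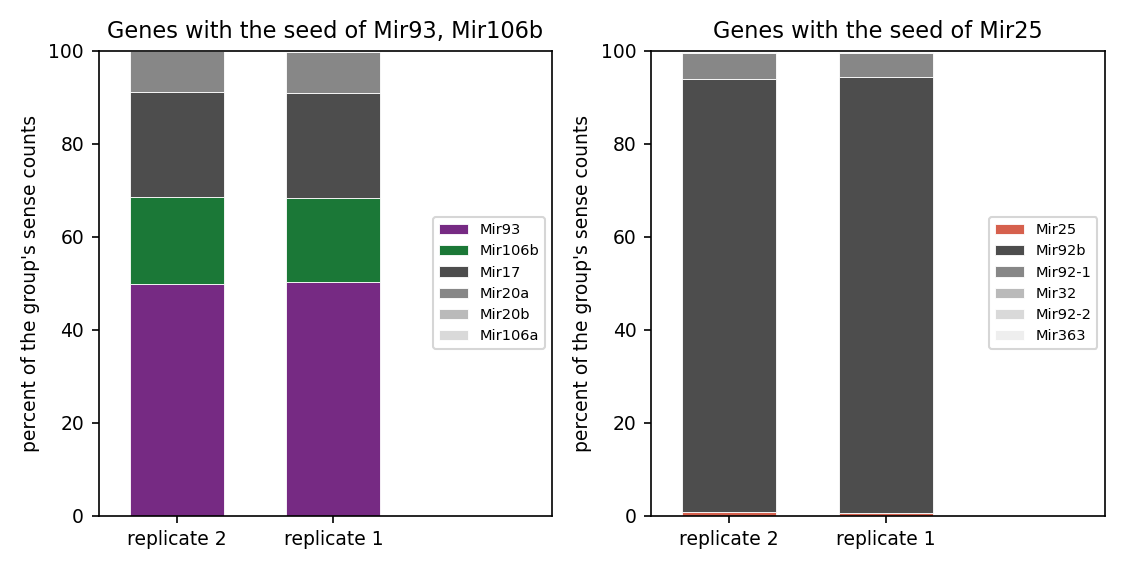
Percent of the sense counts of each seed group held by its genes, in replicate 2 and replicate 1, with the AAAGUGC group on the left and the AUUGCAC group on the right. Mir93 and Mir106b fill over 68% of the left bars, and Mir25 is the thin band at the foot of the right bars, below Mir92b.

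The miR-17~92 cluster on chromosome 14 and the Mir106a to Mir363 cluster on the X chromosome are the paralogues of the Mcm7 cluster. The Mcm7 cluster had 11074 counts in replicate 2 and 8065 in replicate 1, against 7541 in replicate 2 and 5537 in replicate 1 for the 6 genes of miR-17~92. It was thus 1.47 times as high in replicate 2 (95% exact interval 1.43 to 1.51) and 1.46 times in replicate 1 (1.41 to 1.51). With each gene's counts divided by its own hairpin length and then summed, it was 1.47 times as high in replicate 2 and 1.45 times in replicate 1. This allows for the length of each hairpin but not for the number of genes, 3 against 6. Because Mir92-1 and Mir19b-1 have copies whose shared reads are not counted, these ratios are upper values, and whether the excess would remain with those reads was not tested. The Mir106a to Mir363 genes summed to 120 counts in replicate 2 and 112 in replicate 1. The Mcm7 cluster exceeded them 92.3-fold in replicate 2 (77.1 to 111.4) and 72.0-fold in replicate 1 (59.8 to 87.6). These folds are upper values too, since 90 of the 120 counts in replicate 2 and 74 of the 112 in replicate 1 came from Mir92-2, a copy of Mir92-1, and Mir19b-2 is a copy with no count.

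The balance of the seeds differed between the clusters. In the Mcm7 cluster the AAAGUGC genes had 33.3 times the counts of the AUUGCAC gene in replicate 2 (29.8 to 37.3) and 43.6 times in replicate 1 (37.6 to 50.8). In miR-17~92, Mir17 and Mir20a together had 2.11 times the counts of Mir92-1 in replicate 2 (2.01 to 2.22) and 1.99 times in replicate 1 (1.88 to 2.11). The ratio was 15.8 times larger in the Mcm7 cluster in replicate 2 (95% exact interval 13.98 to 17.9) and 21.9 times larger in replicate 1 (18.7 to 25.7). Lost reads of the miR-92a copies would lower the count of Mir92-1, and the ratio of miR-17~92 is an upper value to that extent. Any lost reads of Mir17, whose arm is nearly that of Mir106a, would act the other way. In Mir106a to Mir363 the ratio was 0.224 in replicate 2 (0.135 to 0.359) and 0.318 in replicate 1 (0.198 to 0.495), so its AUUGCAC genes had the higher counts.

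Unequal levels were common among neighbouring miRNA genes. Genes on the same strand no more than 10000 bases apart were joined into runs, and 42 runs held at least 2 tested genes. The ratio of the highest to the lowest mean level was 27.5 in the Mcm7 run, against a median of 23.5 over all 42 runs, and 18 of the 42 reached at least that of the Mcm7 run, itself included. Among the 8 runs with exactly 3 tested genes the median was 29.1, above the Mcm7 run. Of the 8, 5 reached at least its ratio, itself included. The highest, the runs that begin with Mir23b, Mirlet7d and Mir23a at 447, 175 and 120, hold genes with a copy, which can be undercounted. Of those without a copy, the run that begins with Mir341 lay above the Mcm7 run at 30.7. Those that begin with Gm22650, Mir99b and Mir429 lay below it, at 15.3, 5.85 and 5.02. Among the 21 runs without a gene that has a copy the median was 14.7, and 6 reached that of the Mcm7 run, again with itself included. The log2 ratios between the libraries spanned 0.40 from Mir93 to Mir25, less than the median of 0.77 over the 42 runs. Among the 21 runs without a gene that has a copy the median span was 0.58, and 14 spanned at least as much as the Mcm7 run, itself included. In both respects the Mcm7 run lay within the range of the others.

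**Figure D5:**
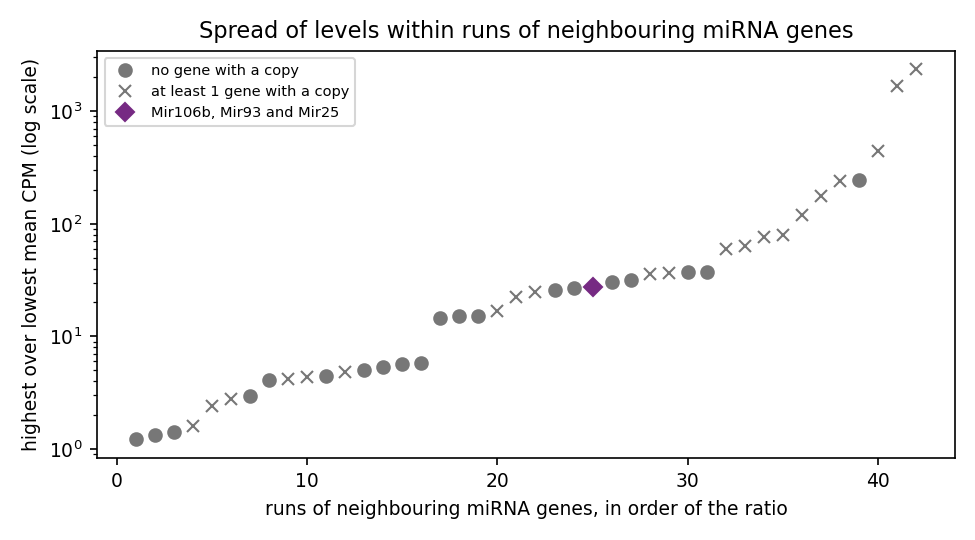
Ratio of the highest to the lowest mean CPM (log scale) in each of the 42 runs of neighbouring miRNA genes, in rising order, with crosses for runs that hold a gene with a copy and circles for those without. The Mcm7 run, drawn as a diamond at 27.5, lies slightly above the middle.

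By distance in log2 CPM over both libraries, the genes most like Mir93 were Mirlet7c-2, which shares 20 or more bases with a copy, Mir383 and Mir434, at 0.14 to 0.16. Those most like Mir106b were Mir667, Mir672 and Mir421, at 0.11 to 0.24, and those most like Mir25 were Mir8112, which also has a copy, Mir1198 and Mir551b, at 0.19 to 0.23. With 2 libraries this likeness is little more than a similar level.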

How the data were processed

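For each library the authors deposited raw read counts per miRNA gene, with no normalization, on mm10 and GENCODE M21 as their notes state. Aligner and trimming: not given in the sources used here. The sense counts were used. The roles of the columns were read from their values. Library sizes exclude the leading lines for unassigned reads, among them multimapping reads (48.4% of the reads of replicate 2, 45.9% of those of replicate 1). Symbols and positions are from GENCODE M21, and sequences from RefSeq, whose positions for the members were the same.

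With 1 group, edgeR's quasi-likelihood test has no coefficient to test. Fisher's exact test (SciPy 1.17.1) was used, with log2(CPM + 0.5), a threshold of 0.05 and a minimum of 10 counts. It was tested on simulated data that held counting error alone. That simulation cannot show how the test behaves with further spread between libraries. Scaling used edgeR 4.0.16 and DESeq2 1.42.0. Folds were predicted with RNAfold of ViennaRNA 2.7.2. Ratios between members have exact binomial intervals. The members, lists and named genes (the members, their paralogues and seed relatives, the 3 nearest genes in level, leading markers) were proposed with earlier results of these data known, although the rule for the members uses no measured value.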

Additional observations from a re-analysis of the deposited data

How the results depend on the processing

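The alternatives were another strand column, other denominators, scalings, count minimums and pseudocounts, thinning, counts per base and leaving out each replicate. None of the 13 results changed its direction. Of 71 recomputed values, 52 kept the side of the threshold or stayed within 1 SD (a count, within 1.5 times). Some of these could not have come out otherwise. With 2 libraries, either alone always lies within 1 SD of their mean, and the pseudocount does not enter the test. The order Mir93, Mir106b, Mir25 held under each alternative run for levels and ratios, though most of these could hardly have changed it. Other denominators divide all 3 genes alike. Counts without regard to strand added 2 reads, to Mir25 in replicate 2, and the hairpins are of similar length, 82 to 88 bases. Mean CPM moved for Mir106b, Mir93 and the cluster to 516.0, 1403 and 1970 with counts without regard to strand, to 543.9, 1479 and 2077 without the most abundant gene, and to 531.0, 1444 and 2027 without genes that have a copy, since the total is smaller. Mir25 rose as well, to 51.2, 53.8 and 52.4 CPM in the same order, but stayed within its SD of 9.87 CPM, which is large for its level. Per 1000000 of all reads, Mir106b, Mir93, Mir25 and the cluster stood at 179.5, 488.6, 17.7 and 685.8. With each gene's counts divided by its hairpin length, the log2 ratio of Mir93 to Mir106b was 1.34, and the members' share of the AAAGUGC group 69.2%. This share was computed after seeing the data.

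Between the libraries, Mir106b kept a log2 ratio of 0.10 but lost the call with no filter (adjusted p = 0.173 by Fisher's exact test), where more genes are tested, and at 0.0848 with the deeper library thinned (adjusted p = 0.0959). Over its other alternatives the adjusted p lay between 0.00167 and 0.0365. Mir93 gained the call at 0.0610 with TMM (adjusted p = 0.0280 by the exact binomial test) and 0.0666 with DESeq2 size factors (adjusted p = 0.0152). Over its other alternatives the adjusted p lay between 0.293 and 1. These scalings moved the median log2 ratio of all tested genes to -0.03, and the cause was not tested further. With either replicate left out, a single library remains and no test between libraries can be made. For Mir25, 323 counts in replicate 2 and 181 in replicate 1 set the precision.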

Other observations

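Within the paralogous miR-17~92 cluster, Mir18 had 290 counts in replicate 2 and 94 in replicate 1 and was 2.33-fold higher in replicate 2 (adjusted p = 1.3e-13 by Fisher's exact test). Its neighbours Mir17, Mir20a and Mir92-1 did not pass, with log2 ratios of 0.03, 0.05 and -0.05. Mir19a, which lies between Mir18 and Mir20a, had no count in either library, which allows up to 0.502 CPM in replicate 2 and 0.664 CPM in replicate 1. Its hairpin shares an unbroken stretch of at most 13 bases with another annotated miRNA gene, Mir19b-2, so it is no copy by the limit of 20 bases used here. That limit counts identical stretches only, and near copies that differ at single bases can fall below it. Whether reads of Mir19a were lost in this way was not tested. Mir19b-1 and Mir19b-2, which share 25 bases, had no count either.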
